A study of Mus musculus with 70 samples.

Results

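Macrophage activation genes are 10 transcripts by which macrophages in different states are told apart: Arg1, Nos2, Acod1, Chil3, Mrc1, Trem2, Gpnmb, Ctss, Lyz2 and Adgre1. They were taken by symbol from a count table of 55011 mouse genes, and all 10 were found there. The study asked how muscle stromal cells respond to injury and to cytokines and how they bear on leukocyte entry and regeneration, and it measured RNA by sequencing in 70 libraries. The groups used here for leukocytes were CD45+ cells, a gate that takes leukocytes, from C57BL/6J hindlimb muscle 1 day after cardiotoxin (n = 3) and from uninjured C57BL/6J hindlimb muscle, here called day 0 (n = 3). Cardiotoxin is a snake venom toxin that kills myofibres. Endothelial (CD31+) cells, muscle mesenchymal stromal cells (MmSCs) and satellite cells (MuSCs) were sorted from C57BL/6J muscle at the same 2 times (n = 3 each). Whole tibialis anterior muscle of C57BL/6J mice was taken 7 days after cardiotoxin from animals that had also received an antibody against the neutrophil-attracting chemokine Cxcl5, labelled aCxcl5 (n = 3), or IgG (n = 3), both intraperitoneally. The cytokine groups were MmSCs of uninjured C57BL/6J mice injected intraperitoneally with Il-1b, TNFa, oncostatin M (Osm) or Il-17A alone, with Osm together with each of the others, or with all 4 (the mix), and with PBS. Each of these groups was taken at 2 h (n = 2), except that the mix was also taken at 4 h (n = 1) and 8 h (n = 2) and that no time is given for PBS (n = 2). MmSCs of Il1b-KO (n = 3) and Il1b-WT (n = 2) littermates 1 day after cardiotoxin, and Thy1.1+ and Thy1.1- MmSCs of Il6RD mice, a reporter and depleter line in which Thy1.1 tags cells that express Il6, 12 h after cardiotoxin (n = 3 each), were used for Acod1. MmSCs of DMDmdx mice of 2.5, 7 and 12.5 weeks (n = 3, 3 and 2), which lack dystrophin and were given no cardiotoxin, were used for levels alone. Ages, sexes and the animal behind each library are not given for these groups, apart from the age of the DMDmdx mice, so p-values measure the spread between libraries, which may be technical. Sorted libraries came from 1000 cells each.

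Macrophages change their gene expression with the signals they meet. Interferon and microbial products drive inducible nitric oxide synthase (Nos2), which turns arginine into nitric oxide, and the mitochondrial enzyme Acod1, which makes itaconate from an intermediate of the citric acid cycle. Type 2 cytokines and wounding drive arginase 1 (Arg1), which turns the same arginine into ornithine and urea, together with the chitinase-like protein Chil3 and the mannose receptor Mrc1. Trem2, a lipid-sensing receptor, and Gpnmb, a membrane glycoprotein of phagocytes rich in lysosomes, mark macrophages loaded with lipid or cell debris. Ctss, a lysosomal protease, Lyz2, the lysozyme of myeloid cells, and Adgre1, which encodes the surface antigen F4/80, mark the lineage more broadly. In injured muscle, blood monocytes and neutrophils enter first, and macrophages clear dead fibres and then take on repair functions.

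The 10 genes lie on 7 autosomes (GENCODE M21 annotation of GRCm38) and all are protein-coding. Arg1 spans chr10:24915221-24927484 on the minus strand, Nos2 chr11:78920787-78960254 on the plus strand, Acod1 chr14:103046977-103056573 on the plus strand and Chil3 chr3:106147554-106167564 on the minus strand. Mrc1 lies at chr2:14229392-14332057, Trem2 at chr17:48346401-48354147, Gpnmb at chr6:49036546-49070929, Ctss at chr3:95526786-95556403 and Adgre1 at chr17:57358691-57483527, all on the plus strand. Lyz2 (chr10:117277331-117282321) and its neighbour Lyz1 (chr10:117287797-117292868) lie in the same orientation on the minus strand. Their longest coding transcripts are 92% identical, so reads may be split between them, and the same holds for Chil3 and Chil4 at 94.3%. Mrc1 holds Mir511 and Ctss holds the pseudogene Hmgb1-ps5 on the same strand.

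The RefSeq promoter table (GRCm38.p6) held a window for 7 of the 10 genes. Those printed are the 250 bases before the annotated start, 5′ to 3′ on the gene's strand, of the gene that appeared in MmSCs given cytokines (Acod1, chr14:103046762-103047011, plus strand), of a gene that rose in CD45+ cells (Chil3, chr3:106167565-106167814, minus strand) and of the 2 lysozyme copies, which had different values in those cells (Lyz2, chr10:117282273-117282522, and Lyz1, chr10:117292869-117293118, both minus strand). The lysozyme windows were chosen after the values of these genes were seen. Capitals mark matches, on either strand, to the NF-kB type (GGG and CC with any 5 bases between), to TTCNNNGAA (STAT type) or to TTNNGNAA (C/EBP type).
Acod1: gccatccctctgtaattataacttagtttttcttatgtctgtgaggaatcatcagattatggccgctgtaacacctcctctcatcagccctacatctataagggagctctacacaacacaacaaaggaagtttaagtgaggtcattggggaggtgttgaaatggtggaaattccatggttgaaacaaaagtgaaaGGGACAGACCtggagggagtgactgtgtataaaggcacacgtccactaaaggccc
Chil3: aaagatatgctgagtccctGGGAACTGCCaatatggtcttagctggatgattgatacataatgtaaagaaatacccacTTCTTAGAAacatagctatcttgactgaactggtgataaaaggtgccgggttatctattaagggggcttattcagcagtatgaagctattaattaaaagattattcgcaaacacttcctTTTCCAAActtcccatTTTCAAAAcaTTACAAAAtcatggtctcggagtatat
Lyz2: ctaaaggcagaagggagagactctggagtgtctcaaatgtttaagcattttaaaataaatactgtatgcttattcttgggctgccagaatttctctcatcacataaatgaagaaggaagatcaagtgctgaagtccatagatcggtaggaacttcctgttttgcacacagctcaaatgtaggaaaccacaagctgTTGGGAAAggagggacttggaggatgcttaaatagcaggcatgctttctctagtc
Lyz1: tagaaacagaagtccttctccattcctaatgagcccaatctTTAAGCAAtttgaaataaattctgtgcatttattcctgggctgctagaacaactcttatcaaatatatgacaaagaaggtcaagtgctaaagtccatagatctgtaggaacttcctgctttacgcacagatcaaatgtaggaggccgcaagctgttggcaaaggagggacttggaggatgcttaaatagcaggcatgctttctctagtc
In the Acod1 window the capitals are 1 match of the NF-kB type that begins 55 bases before the start. In the Chil3 window they are 1 match of the NF-kB type, 1 of the STAT type and 3 of the C/EBP type. In each lysozyme window they are 1 match of the C/EBP type, 55 bases before the start in Lyz2 and 209 in Lyz1, although the windows are 79.4% identical. Of 32851 mouse promoter windows of this length, 45.8% held the NF-kB letters, 36.8% the C/EBP letters and 7.02% the STAT letters, so a match is a description of the letters and not of a bound site. No match to the interferon type (GAAA and GAAA with any 2 bases between, in 2.98% of windows) or the AP-1 type (TGANTCA, in 6.75%) was found in these 4 windows.

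Library totals ran from 2252373 to 8408842 counts over the series, from 2252373 to 7519352 in the sorted compartments and from 3176462 to 7178453 in whole muscle. Levels are given in CPM, the count of a gene scaled to the total of its library. Fold changes are log2 changes ± SE from edgeR after TMM scaling, and calls were made at 0.05 after adjustment of the p-values over every gene fitted in the same experiment. The TMM factors add 0.25 log2 to a CPM ratio of CD45+ day 1 over day 0. The median change of all 16374 genes tested there was -0.12. The CD45+ gate carried its markers. The summed level of 11 pan-leukocyte genes was 18721 to 21190 CPM at day 1 and 14961 to 16376 CPM at day 0, against 4.58 to 15.3 CPM in the cytokine MmSC libraries. Ptprc, which encodes CD45 itself, had 368 to 469 CPM in CD45+ cells at day 1 and 672 to 916 CPM at day 0. The library labelled CD45+ day 0 replicate 3 stood apart from the other day 0 libraries, with 4355 CPM over 12 neutrophil markers against 2373 and 1496 CPM, and 6868 CPM over 15 resident macrophage markers against 13940 and 12905 CPM. Values that this library moves most are also given without it.

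The first comparison set CD45+ cells of injured muscle against those of uninjured muscle. The fitted level of Arg1 was 216.5-fold higher 1 day after injury, that of Acod1 16.4-fold, that of Chil3 8.48-fold and that of Gpnmb 7.28-fold. Nos2, the other enzyme that uses arginine, stayed at a few counts per library. The lineage genes Lyz2, Ctss and Adgre1 and the mannose receptor Mrc1 did not pass the test. In all, 5 of the 10 genes were called higher and 0 lower, where 34.6% of all genes tested were called, 15.9% higher and 18.7% lower. Without day 0 replicate 3 the count was also 5, with Nos2 in place of Trem2. The median log2 change of the 10 was 1.04. In bulk libraries such as these, a change in the number of cells of a type cannot be told apart from a change in RNA per cell.

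Arg1 had 2619, 2272 and 2047 CPM in the CD45+ libraries of day 1, against 16.1, 12.1 and 9.03 CPM at day 0. The groups were far apart, and the libraries within each differed by less than 2 times. Arg1 averaged 2313 ± 288 CPM at day 1 and 12.4 ± 3.56 CPM at day 0 (SD, n = 3 each), a log2 change of 7.76 ± 0.34 (edgeR adjusted p = 1.2e-12). Counted from the highest rise, it ranked 6 among the 16374 genes. Its mitochondrial paralog Arg2 had 101, 158 and 95.3 CPM at day 1, against 30.4, 8.05 and 66.2 CPM at day 0, again without overlap (2.04 ± 0.47, adjusted p = 0.00187, and 2.80 without day 0 replicate 3). Arg2 overlaps Vti1b and Gm48780 on the other strand, and the strand setting of the counting is not given, so its counts may include theirs. Nos2 had 5, 8 and 2 counts at day 1, against 0, 0 and 6 counts at day 0. These groups overlapped, and the change of 1.14 ± 0.89 did not pass (adjusted p = 0.349). Without day 0 replicate 3, the library with the 6 counts, Nos2 was called (adjusted p = 0.0127).

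Acod1 had 446, 466 and 266 CPM in CD45+ cells at day 1, against 14.1, 7.19 and 67.1 CPM at day 0. Day 0 replicate 3 was the highest of its group and still under every day 1 library. The log2 change was 4.04 ± 0.69 (adjusted p = 0.000246), and 5.38 without that library. Chil3 had 1945, 1574 and 2378 CPM at day 1, against 118, 162 and 565 CPM at day 0, with the same day 0 library highest. It rose by 3.08 ± 0.57 (adjusted p = 0.000372), and by 4.02 without that library. Its near copy Chil4 had 0, 1 and 2 counts at day 1 and 2, 3 and 6 counts at day 0. Nearly all counts of this pair were thus assigned to Chil3.

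**Figure D1:**
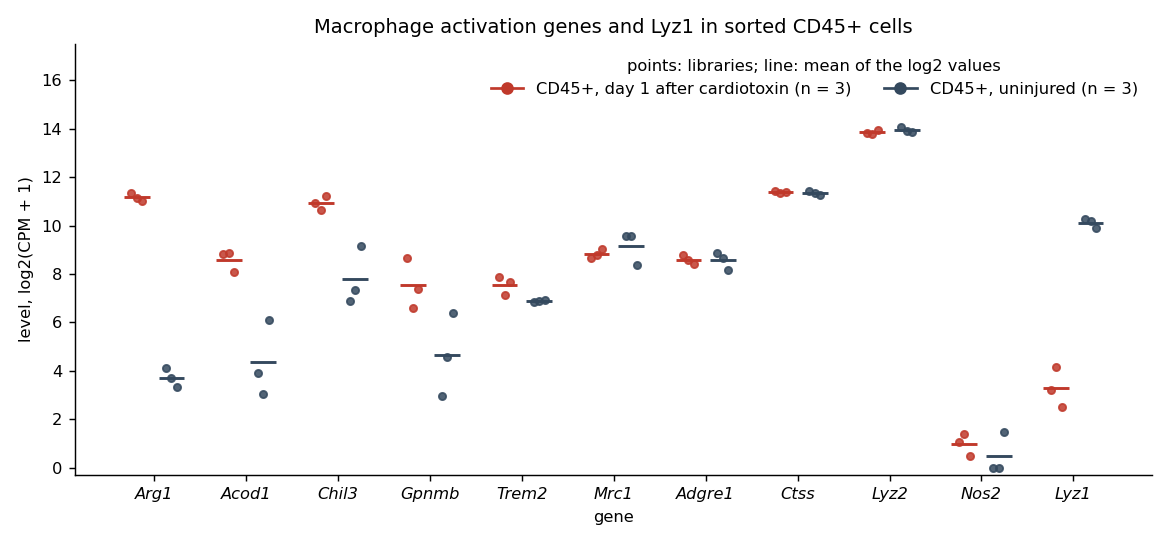
Levels of the 10 macrophage activation genes and of Lyz1 in CD45+ cells, as log2(CPM + 1) on the vertical axis, with 1 point per library at day 1 after cardiotoxin (left of each pair) and in uninjured muscle, and a line at the mean of the log2 values. The day 1 points of Arg1, Acod1, Chil3, Gpnmb and Trem2 lie above all day 0 points, those of Lyz2, Ctss, Adgre1 and Mrc1 overlap with them, and those of Lyz1 lie below them.

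Gpnmb had 401, 96.1 and 167 CPM in CD45+ cells at day 1, against 6.81, 22.4 and 83.1 CPM at day 0. The groups did not overlap, although the lowest day 1 library was close to the highest day 0 library. The log2 change was 2.86 ± 0.60 (adjusted p = 0.000711), 4.16 without day 0 replicate 3 and 2.17 without day 1 replicate 1, the highest library. Trem2 had 232, 137 and 201 CPM at day 1, against 115, 118 and 121 CPM at day 0, so that it was near even within day 0 and above that in every day 1 library. Its rise was the smallest called, 0.93 ± 0.34 (adjusted p = 0.0401). It lost its call with DESeq2 (0.92, adjusted p = 0.511), with the replicate number as a block (0.89, adjusted p = 0.0513) and without any 1 of 5 of the 6 libraries (adjusted p = 0.0653 to 0.131), all but day 1 replicate 2.

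Lyz2 was the most abundant of the 10 genes, with 14646, 14119 and 15783 CPM in CD45+ cells at day 1 and 17287, 15289 and 14827 CPM at day 0. The groups overlapped, and the fitted change was 0.15 ± 0.78 (adjusted p = 0.919). Ctss had 2760, 2595 and 2650 CPM at day 1 and 2742, 2591 and 2450 CPM at day 0 (0.28 ± 0.53, adjusted p = 0.726). Both genes had broadly similar levels in every CD45+ library, but the wide standard errors leave room for changes in either direction. These errors rest on 1 estimate of spread per gene over all 24 libraries of the sorted compartments. They therefore do not describe the spread of the CD45+ libraries alone. Adgre1 had 444, 383 and 337 CPM at day 1 and 460, 402 and 288 CPM at day 0 (0.25 ± 0.40, adjusted p = 0.666). Mrc1 had 404, 439 and 518 CPM at day 1 and 756, 748 and 327 CPM at day 0 (-0.20 ± 0.34, adjusted p = 0.70), with day 0 replicate 3 below the other 5 libraries, and without it the difference was -0.52 (adjusted p = 0.239). The sign for Mrc1 turned when day 0 replicate 1 or replicate 2 was left out. For Lyz2 the mean CPM was lower at day 1 while the fitted change was above 0, because the scaling factors shift the ratio.

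The 2 lysozyme copies had different values. Lyz1, the copy best known from Paneth cells of the gut, had 8.23, 16.7 and 4.604 CPM in CD45+ cells at day 1, against 1236, 1153 and 942 CPM at day 0. The groups were far apart, and the log2 change was -6.57 ± 0.41 (adjusted p = 1.61e-09). Lyz1 made up 0.0562%, 0.118% and 0.0292% of the counts of the pair at day 1, against 6.67%, 7.01% and 5.98% at day 0. The share of Lyz1 was thus not fixed across CD45+ libraries. In whole muscle at day 7 it was 0.554%, 1.29% and 0.739% with aCxcl5, and 0.837%, 1.17% and 0.559% with IgG.

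To set genes side by side, levels were divided by the union of all annotated exons of each gene. This union can be longer than the transcript that is expressed, so the orders depend in part on the annotation. Per kilobase of exon, the order in CD45+ cells at day 1 was Lyz2 (11284 CPM per kb), Ctss (1965), Chil3 (1204), Arg1 (1038), Acod1 (149.6), Adgre1 (119.8), Mrc1 (71.2), Trem2 (38.5), Gpnmb (34.0) and Nos2 (0.234). At day 0 it was Lyz2 (12007 CPM per kb), Ctss (1911), Chil3 (172.5), Adgre1 (118), Mrc1 (95.8), Trem2 (23.8), Acod1 (11.2), Gpnmb (5.75), Arg1 (5.57) and Nos2 (0.136). The day 0 order rests in part on replicate 3. Without it the means were 133 CPM per kb for Adgre1, 118 for Mrc1, 85.75 for Chil3, 23.5 for Trem2, 6.33 for Arg1, 4.05 for Acod1 and 2.24 for Gpnmb, so that Chil3 lay below Adgre1 and Mrc1, and Arg1 above Acod1 and Gpnmb. Across the libraries of day 1, Chil3 overlapped Arg1, Acod1 overlapped Adgre1, and Trem2 overlapped Gpnmb. Across those of day 0, Chil3, Adgre1 and Mrc1 overlapped each other, Trem2 overlapped Acod1, and Acod1, Gpnmb and Arg1 overlapped each other.

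Other genes of the same pathways, and markers of cell types, were taken from lists. Of all genes tested in CD45+ cells 15.9% were called higher and 18.7% lower at day 1, and the counts below stand beside these shares. Of 18 genes of arginine and itaconate metabolism, 12 rose and 0 fell in CD45+ cells at day 1, with a median log2 change of 0.85. They included Hmox1, which breaks down haem, with 1123 CPM at day 1 against 264 CPM at day 0 (2.34 ± 0.24, adjusted p = 1.57e-07), the antioxidant regulator gene Nfe2l2 (1.16 ± 0.14, adjusted p = 9.51e-07) and Odc1, which makes polyamines from the ornithine that arginase releases (2.36 ± 0.35, adjusted p = 1.88e-05). Of 17 tested genes of inflammatory activation 11 rose and 2 fell (median 1.98). The cytokine gene Tnf had 579 CPM at day 1 against 34.6 CPM at day 0 (4.31 ± 0.25, adjusted p = 7.13e-11), the cystine transporter gene Slc7a11 rose by 2.84 ± 0.34 and the prostaglandin synthase gene Ptgs2 by 3.86 ± 0.52.

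Of 13 tested genes of alternative activation 5 rose and 4 fell, with a median log2 change of 0.26, so this list was split. The transglutaminase gene Tgm2 (4.08 ± 0.45, adjusted p = 4.44e-07) and the receptor chain gene Il4ra (2.41 ± 0.28, adjusted p = 7.33e-07) rose with Arg1 and Chil3. Retnla, which encodes the secreted protein Fizz1, had 32.9 CPM at day 1 against 3667 CPM at day 0 (-6.54 ± 0.75, adjusted p = 1.4e-06), and the lectin gene Mgl2 fell by 3.44 ± 0.41. Of 20 lipid and phagolysosome genes, 13 rose and 3 fell (median 1.11). The lysosomal protease gene Ctsd had 5106 CPM at day 1 against 758 CPM at day 0 (3.00 ± 0.15, adjusted p = 1.11e-11), Ctsl rose by 3.70 ± 0.23 and the lipid droplet gene Plin2 by 3.01 ± 0.21, while the receptor gene Axl fell by 2.21 ± 0.22.

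Levels of cell type markers in the CD45+ libraries moved with injury too. These levels do not tell a change in cell numbers from a change in RNA per cell. Of 15 resident macrophage markers 11 fell and 1 rose (median log2 change -2.13), and their summed level was 3053 to 3709 CPM at day 1 against 6868 to 13940 CPM at day 0. Timd4, a receptor of long-lived resident macrophages, had 1.49 CPM at day 1 against 73.3 CPM at day 0, and Cd209f 4.15 CPM against 308 CPM. Of 12 blood monocyte markers 6 rose and 0 fell (median 1.17), with summed levels of 9290 to 9955 CPM at day 1 and 3472 to 4401 CPM at day 0. Thbs1, which encodes a thrombospondin, had 1245 CPM at day 1 against 16.97 CPM at day 0. It also reached 5861 CPM in the cytokine MmSC libraries, so its level is not particular to monocytes. Of 10 tested neutrophil markers 8 rose and 0 fell (median 1.73), with sums of 6660 to 9883 CPM at day 1 and 1496 to 4355 CPM at day 0. All tested markers of T cells (5), B cells (4), NK cells (4) and dendritic cells (6) fell. Their summed levels at day 1 and day 0 were 2.22 to 10.2 against 86.5 to 263 CPM for T cells, 7.05 to 43.2 against 629 to 2972 CPM for B cells, 4.43 to 9.31 against 147 to 393 CPM for NK cells and 53.3 to 201 against 1075 to 1357 CPM for dendritic cells. The red cell genes were at 0 in all day 1 libraries and reached 482 CPM in 1 day 0 library. The part that these shifts have in the changes of Arg1, Acod1, Chil3, Gpnmb and Trem2 was not tested.

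The next question was whether these changes were a property of the injured muscle in general. Outside CD45+ cells most of the 10 genes were near 0. Over all 46 MmSC libraries the highest level was 7.23 CPM for Arg1, 3.69 CPM for Lyz2, 1.85 CPM for Ctss, 1.61 CPM for Mrc1 and under 1 CPM for Adgre1, Trem2 and Chil3. The Arg1 maximum came from DMDmdx mice of 7 weeks, whose libraries had 7.21, 6.80 and 7.23 CPM. The maxima of Lyz2, Ctss, Mrc1, Adgre1 and Trem2 came from the same group. Arg1 in MmSCs had 12, 6 and 8 counts at day 1 and 16, 5 and 8 counts at day 0. The day 1 response of Arg1 was 8.22 ± 0.70 log2 higher in CD45+ cells than in MmSCs, by a test of the difference itself (edgeR interaction, adjusted p = 2.98e-08).

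Gpnmb was the exception, with its own level in stromal cells and the opposite response there. It had 27.2, 83.7 and 27.6 CPM in MmSCs at day 1, against 290, 297 and 146 CPM at day 0. No day 1 library reached a day 0 library, and Gpnmb fell by 2.69 ± 0.58 (adjusted p = 0.00067). Among all genes tested in MmSCs, 41.8% were called between these times. The CD45+ response minus the MmSC response was 5.55 ± 0.83 (adjusted p = 2.96e-05). Without CD45+ day 0 replicate 3 it was 6.84, without CD45+ day 1 replicate 1 4.70 and without MmSC day 1 replicate 2 6.29. Of the 10 genes 2 were called for this difference, Arg1 and Gpnmb, where 25% of all genes were. Acod1, Chil3 and Trem2 had 0 counts in all 6 MmSC libraries of this experiment. The test could therefore not call them, whatever their change in CD45+ cells. Gpnmb was also present in MuSCs, with 5.24, 6.87 and 4.16 CPM at day 1 and 11.6, 13.3 and 13.95 CPM at day 0, without overlap. In MmSCs of DMDmdx mice it had 2.95 to 14.3 CPM, and these libraries belong to a separate experiment.

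**Figure D2:**
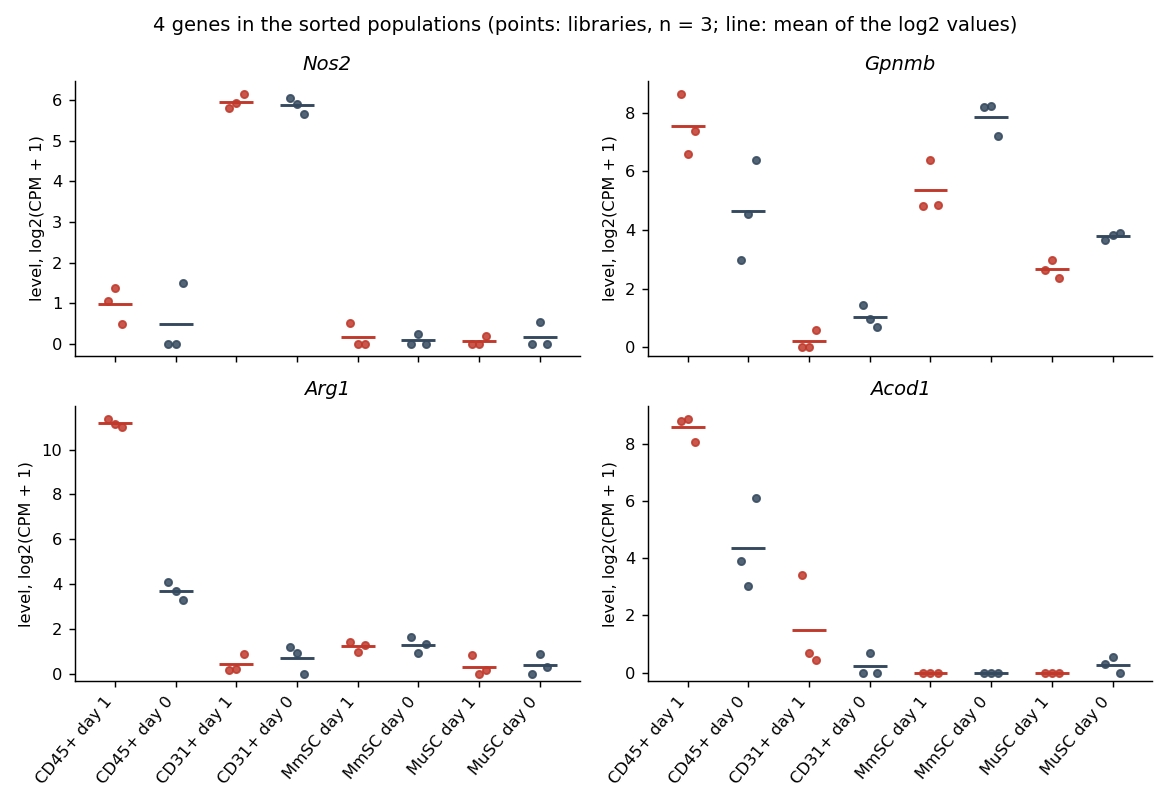
Levels of Nos2, Gpnmb, Arg1 and Acod1 in the sorted populations, as log2(CPM + 1) on vertical axes that differ between panels, with 1 point per library at day 1 after cardiotoxin and in uninjured muscle (n = 3 each) and a line at the mean of the log2 values. Nos2 is highest in CD31+ cells at both times, Gpnmb is higher at day 1 in CD45+ cells and lower at day 1 in MmSCs, and Arg1 at day 1 is high in CD45+ cells alone among these populations.

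In this sort Nos2 was found mainly in CD31+ cells. They had 55.2, 59.7 and 70.7 CPM at day 1 and 65.8, 59.3 and 49.4 CPM at day 0. The groups overlapped, with a log2 change of 0.10 ± 0.37 (adjusted p = 0.881), in a comparison where 23.5% of genes were called. CD45+ cells had at most 1.81 CPM, and MmSCs and MuSCs of the same experiment at most 0.444 CPM. This pattern of Nos2 was noticed after its values were seen. The other genes were near 0 in CD31+ cells with 1 exception. The library labelled CD31+ day 1 replicate 1 had 705 counts of Lyz2, 176 of Ctss, 86 of Chil3, 61 of Acod1 and 39 of Adgre1, and its pan-leukocyte sum was 191.6 CPM. The other CD31+ libraries of day 1 had 9 and 1 counts of Lyz2 and sums of 22.2 and 25.4 CPM, and those of day 0 had 1 to 3 counts and 8.72 to 13.7 CPM. No injury response of these genes in CD31+ cells is therefore given.

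Likeness between genes was measured as Pearson's r over the 28 group means of log2(CPM + 1), among 12305 candidates, as a description. The groups share sorts and depth. Adgre1 was most like C1qb (0.996), Trem2 (0.996) and Ms4a7 (0.996), and Ctss most like Lyz2 (0.996), Clec7a (0.995) and Adgre1 (0.995). Mrc1 was most like Tlr8 (0.995), Ly9 (0.994) and Cd84 (0.994), and Chil3 most like Trem1 (0.993), Osm (0.992) and Clec4e (0.991). Arg1 had no gene so near: its highest values were for Il23a, Rhov (0.917 each) and Ankrd22 (0.916). Acod1 was most like Trim30c (0.91), Slc2a6 (0.88) and Slc15a3 (0.861), Nos2 most like Pcdh1 (0.837), Tmem252 (0.816) and Selp (0.814), and Gpnmb most like Sirpa (0.714), Acp5 (0.713) and Abcd2 (0.71).

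The next comparison asked what aCxcl5 antibody did to injured muscle as a tissue, 7 days after cardiotoxin. Levels of 6 of the 7 tested genes were higher with aCxcl5 than with IgG, led by Gpnmb, Trem2 and Ctss, but 0 of the 7 passed the test. Among all 13346 genes tested 0.03% were called, which are 4 unnamed gene models (Gm10717, Gm10800, Gm10801 and Gm21738), all higher. At an unadjusted edgeR p under 0.05 there were 770 genes, or 5.77%, and 5 of the 7 macrophage genes were among them. DESeq2 called 6 genes and 0 of the 7. Without the count filter 159 genes were called, among them Trem2, Gpnmb, Ctss and Lyz2, so the calls here depend on the filter. The share of all genes called in that fit was not computed, so these calls are not read as a result about the macrophage genes. The median log2 change of the 7 was 0.57, and that of all genes tested was -0.0004. Arg1, Acod1 and Chil3 were under the count filter.

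Gpnmb had 190, 819 and 266 CPM in muscle with aCxcl5, against 114, 105 and 199 CPM with IgG. The groups overlapped by 1 library, and replicate 2 with aCxcl5 was the highest by about 3 times. Gpnmb averaged 425 CPM with aCxcl5 and 139 CPM with IgG, a log2 change of 1.56 ± 0.46 (adjusted p = 0.793), and 0.64 without that library. Trem2 had 40.55, 92.2 and 57.3 CPM with aCxcl5, against 27.7, 29.8 and 39.7 CPM with IgG, without overlap and with the same library highest. Its log2 change was 0.91 ± 0.27 (adjusted p = 0.793), and 0.52 without that library. Ctss had 315, 595 and 406 CPM with aCxcl5, against 220, 204 and 288 CPM with IgG, again without overlap. Its log2 change was 0.82 ± 0.21 (adjusted p = 0.793), and 0.52 without that library. The same library had the highest sum over 12 neutrophil markers, 118 CPM, against 17.55 and 23.2 CPM in the others with aCxcl5 and 12.0 to 20.2 CPM with IgG, and the part of that difference was not tested.

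Lyz2 had 1115, 1765 and 1265 CPM with aCxcl5, against 766, 780 and 1119 CPM with IgG. The lowest library with aCxcl5 lay just under the highest with IgG, and the log2 change was 0.57 ± 0.18 (adjusted p = 0.832). Adgre1 had 94.9, 108 and 113 CPM with aCxcl5 and 73.5, 64.1 and 95.7 CPM with IgG (0.37 ± 0.15, adjusted p = 0.844). Mrc1 had 52.65, 62.3 and 63.65 CPM with aCxcl5 and 55.5, 39.0 and 44.1 CPM with IgG (0.28 ± 0.17, adjusted p = 0.85). For Adgre1 and Mrc1 1 library with IgG lay within the range with aCxcl5. Nos2 had 10.6, 9.04 and 8.10 CPM with aCxcl5 and 11.1, 8.50 and 10.4 CPM with IgG (-0.18 ± 0.26, adjusted p = 0.929), with the groups intermixed. Arg1 had 6, 3 and 2 counts with aCxcl5 and 2, 9 and 0 with IgG, and Acod1 had 0, 14 and 3 counts with aCxcl5 and 0, 4 and 0 with IgG. Chil3 had 9, 4 and 7 counts with aCxcl5 and 1, 3 and 1 with IgG, which did not overlap and were not tested.

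**Figure D3:**
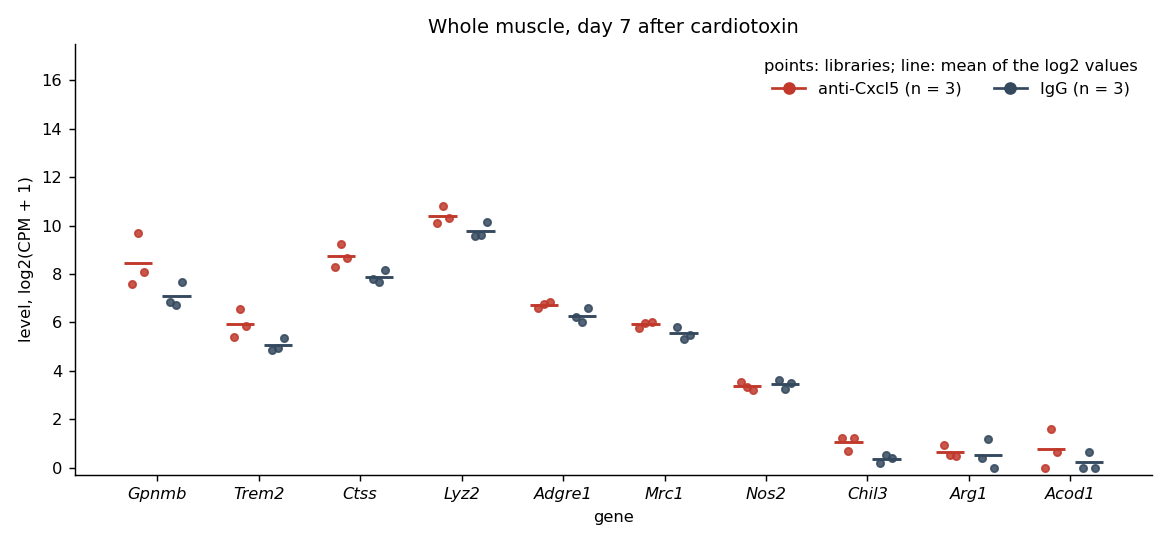
Levels of the 10 macrophage activation genes in whole muscle 7 days after cardiotoxin, as log2(CPM + 1) on the vertical axis, with 1 point per library for mice given aCxcl5 antibody (left of each pair) or IgG (n = 3 each) and a line at the mean of the log2 values. Every library with aCxcl5 lies above every library with IgG for Trem2 and Ctss, 2 of 3 do so for Gpnmb, and Nos2 is intermixed.

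Compared with the CD45+ sort, the tissue at day 7 held little Arg1, Acod1 and Chil3, and Gpnmb stood higher in the order of the genes. Its level did not: CD45+ cells averaged 34.0 CPM per kb of Gpnmb at day 1 and 5.75 at day 0, and muscle with IgG 21.4. Per kilobase of exon Gpnmb had the third highest mean of the 10 with aCxcl5 (65.2 CPM per kb, and 35 without replicate 2, after Lyz2 with 1050 and Ctss with 323), followed by Adgre1 (32.6), Trem2 (12.8), Mrc1 (9.34) and Nos2 (2.10). The libraries with aCxcl5 of Gpnmb overlapped those of Adgre1, and those of Trem2 overlapped those of Mrc1. With IgG, Adgre1 (24.02 CPM per kb) and Gpnmb (21.4) were neighbours within their spread, below Lyz2 (675) and Ctss (175) and above Mrc1 (7.25) and Trem2 (6.55), which overlapped, and Nos2 (2.27). MmSCs, which are part of whole muscle, also expressed Gpnmb, so its tissue level may have more than 1 source. The lengths are again unions of annotated exons, so these orders too depend in part on the annotation. The sort and the tissue are separate experiments at different days, so their orders were not compared by a test.

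Levels of pan-leukocyte markers lay in the same direction in these muscles, while those of single cell types were mixed. The pan-leukocyte sum was 849, 1163 and 1220 CPM with aCxcl5, against 656, 641 and 868 CPM with IgG, with all 11 markers detected in each group. Of its 9 tested genes 0 were called, and their median log2 change was 0.76, with Ptprc at 57.2, 58.3 and 123 CPM against 36.7, 44.7 and 45.65 CPM. B cell marker sums ran from 1.51 to 292 CPM with aCxcl5 (median 7.87), against 2.11 to 4.88 CPM with IgG. T cell sums were 9.48 to 19.97 against 16.2 to 22.7 CPM, and NK cell sums 10.8 to 24.9 against 10.45 to 13.7 CPM. Dendritic cell sums were 45.1 to 57.6 against 35.0 to 41.9 CPM. The part of single cell types in the pan-leukocyte sum, and that of the leukocyte content in the macrophage gene levels, was not tested. The other lists also had 0 called genes, with medians of 0.37 for 13 resident macrophage markers, 0.26 for 20 lipid and phagolysosome genes, 0.19 for 12 inflammatory genes, 0.04 for 10 alternative activation genes and 0.05 for 17 arginine and itaconate genes. Among those with the smallest p were the complement gene C1qc (111 CPM with aCxcl5, 46.8 CPM with IgG, 1.15 ± 0.27), the integrin gene Itgax (60.6 against 13.75 CPM, 2.16 ± 0.55) and Spp1, which encodes osteopontin (357 against 111 CPM, 1.65 ± 0.60). The adjusted p was 0.793 for C1qc and Itgax and 0.832 for Spp1.

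Acod1 was then followed in MmSCs of uninjured mice given cytokines, where the question was which cytokine moves it. It had no count in either PBS library and was detected at 2 h with the mix, with Il-1b, with TNFa and with Osm added to either. Osm alone, Il-17A alone and the pair of Osm and Il-17A gave 0 to 5 counts. These responses were known from an earlier analysis of these data and are given as the base of the direct differences. In the comparison of the 2 h mix with PBS, 38.5% of all 15965 genes were called, 20.5% higher. Against PBS 36.4% were called for the mix at 4 h, 28.4% at 8 h, 33.1% for Il-1b, 14.8% for TNFa, 34.3% for Osm and 4.95% for Il-17A. With Osm they were 41.9% for Il-1b, 37% for TNFa and 35.6% for Il-17A. Among the 10 macrophage genes 4 passed the filter in this experiment (Acod1, Nos2, Gpnmb and Arg1), and 2 of them, Acod1 and Nos2, were called higher. With PBS these 2 had at most 1 count per library, so they passed the filter only through cytokine groups where they were high. Their number among the 4 is therefore not read as a result.

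Acod1 had 0 and 0 counts with PBS, 415 and 311 counts (51.4 and 43.6 CPM) at 2 h of the mix, 160 counts (19.0 CPM) at 4 h and 6 and 9 counts (0.807 and 1.52 CPM) at 8 h. The level was thus highest at the first time taken and near the floor at the last. With a floor of 3 counts per PBS library, Acod1 was at least 147-fold higher at 2 h (adjusted p = 2.21e-08), at least 48.4-fold at 4 h (adjusted p = 1.42e-06) and at least 2.51-fold at 8 h (adjusted p = 0.0216). The 8 h call was lost without mix replicate 2 (adjusted p = 0.0933), without PBS replicate 1 (adjusted p = 0.0987) or without PBS replicate 2 (adjusted p = 0.0931). At 8 h Acod1 was lower than at 2 h by a direct test (-5.83 ± 0.58, adjusted p = 2.86e-07), where 35.3% of genes were called.

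Single cytokines gave lower levels. Il-1b gave 24 and 101 counts (4.17 and 15.5 CPM), at least 27.4-fold above PBS (adjusted p = 6.15e-06). The 2 Il-1b libraries differed from each other more than those of any other group with over 10 counts in each. TNFa gave 34 and 27 counts (4.72 and 4.08 CPM), at least 10.6-fold above PBS (adjusted p = 0.000543). The difference between Il-1b and TNFa was 1.36 ± 0.50 (adjusted p = 0.0964), where 10.3% of genes were called. It rested on the higher Il-1b library, being 0.0265 without it and 2.03 without the lower one (adjusted p = 0.00607). Osm gave 1 and 0 counts and Il-17A 0 and 0, and neither passed (adjusted p = 0.534 and 1).

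Osm, a cytokine that signals through gp130, was linked to higher Acod1 when given with either of the others. Osm with Il-1b gave 155 and 204 counts (30.8 and 35.5 CPM), above both Il-1b libraries. The direct difference was 1.84 ± 0.45 (adjusted p = 0.0171), in a comparison where 7.03% of genes were called. It was 1.16 without Il-1b replicate 1 (adjusted p = 0.0942), 3.17 without Il-1b replicate 2, and 1.71 without the replicate 2 of the pair (adjusted p = 0.0898). Osm with TNFa gave 134 and 98 counts (19.99 and 18.3 CPM), again above both TNFa libraries. The direct difference was 2.31 ± 0.48 (adjusted p = 0.00229), where 18.2% of genes were called. Osm with Il-17A gave 5 and 0 counts, against 1 and 0 with Osm (adjusted p = 0.768, with 1.22% of genes called).

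The mix at 2 h lay above Osm with Il-1b in both libraries, but the difference of 0.59 ± 0.41 did not pass (adjusted p = 0.508, with 3.01% of genes called). Against Il-1b alone it was 2.43 ± 0.45 (adjusted p = 0.00125, with 12.4% of genes called), with 1.76 and 3.76 when Il-1b replicate 1 or replicate 2 was left out. In order of mean level the 2 h groups were therefore the mix, Osm with Il-1b, Osm with TNFa, Il-1b, TNFa and then the groups at a few counts or none. Of the neighbours in that order, the mix and Osm with Il-1b did not pass the test. Il-1b and TNFa did not pass it either, though they did with DESeq2 (adjusted p = 0.0382) and without the filter (adjusted p = 0.00745), and the other neighbours were not tested against each other.

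**Figure D4:**
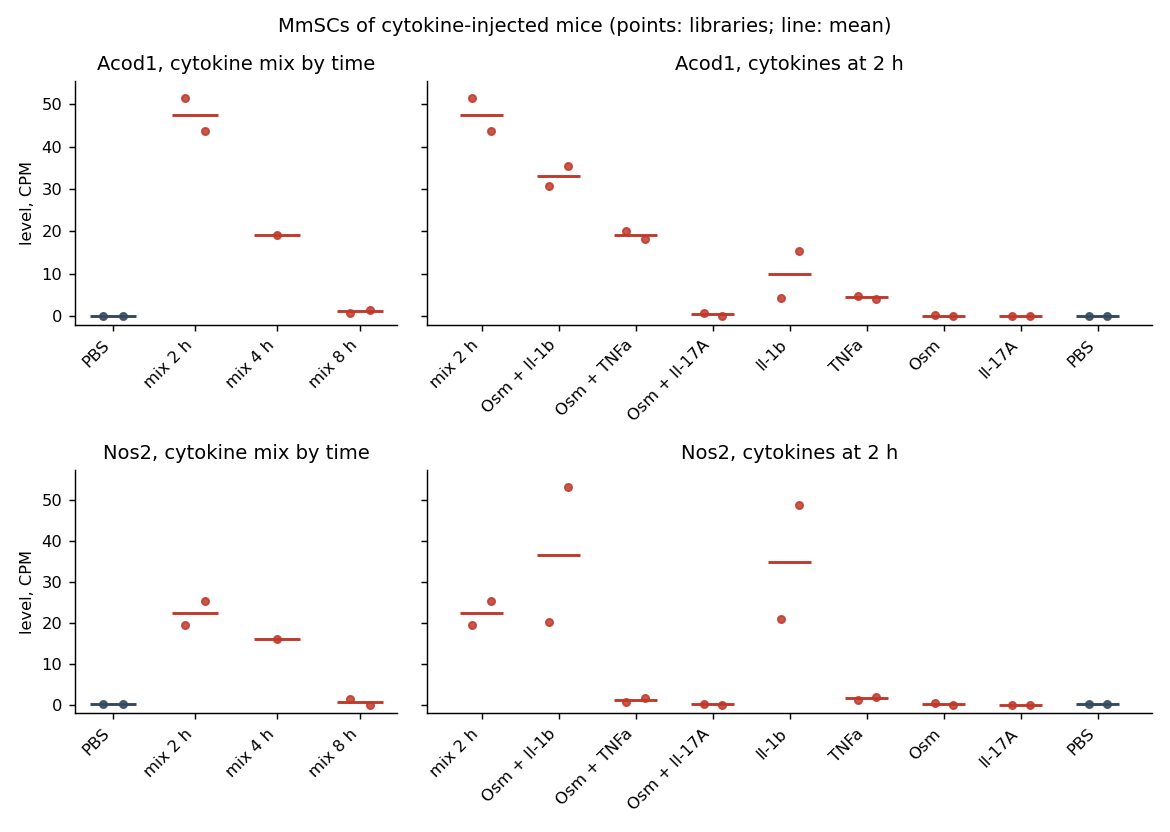
Levels of Acod1 (top) and Nos2 (bottom) in MmSCs of cytokine-injected mice, in CPM on the vertical axes, by time after the mix (left panels, PBS at the low end) and by cytokine at 2 h (right panels, PBS last), with 1 point per library and a line at the mean. Acod1 is highest with the mix and next with Osm and Il-1b, whereas the libraries with much Nos2 are those with Il-1b in the injection, apart from the mix at 8 h.

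Nos2 was the second of the 10 genes that appeared in these MmSCs, and it was added after its values were seen. It had 1 and 1 counts with PBS, 157 and 181 counts (19.45 and 25.4 CPM) at 2 h of the mix, 134 counts at 4 h and 10 and 0 counts at 8 h. The ratio of the 2 h mix to PBS was 206 (adjusted p = 1.67e-06), and counting error alone allows 56.5 to 1706 at 95%, and at 8 h Nos2 was lower than at 2 h (-5.35 ± 0.73, adjusted p = 8.95e-06). Il-1b gave 121 and 318 counts (21.03 and 48.65 CPM) and Osm with Il-1b 101 and 305 counts (20.1 and 53.1 CPM). The ratios to PBS were 289 (79.4 to 2391, adjusted p = 1.03e-06) and 331 (91.1 to 2745, adjusted p = 4.31e-07).

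TNFa gave 9 and 13 counts of Nos2 and Osm with TNFa 4 and 9 counts, and neither passed against PBS (adjusted p = 0.0844 and 0.0956). Both passed with DESeq2 (adjusted p = 0.0225 and 0.0292) and without the count filter (adjusted p = 0.00152 and 0.00817). Nos2 was higher with Il-1b than with TNFa by a direct test (4.63 ± 0.65, adjusted p = 0.000112), by 3.81 without the higher Il-1b library. Between Osm with Il-1b and Il-1b alone Nos2 differed by 0.18 ± 0.50 (adjusted p = 0.888) and Acod1 by 1.84. The difference between these 2 genes in what Osm adds was not tested. Arg1 stayed at 1 to 32 counts in all 21 libraries of the experiment. Gpnmb had 48.2 and 26.2 CPM with the 2 h mix and 79.1 and 72.6 CPM with PBS (-0.51 ± 0.49, adjusted p = 0.451, after a scaling shift of 0.52).

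Few leukocyte transcripts were found in these MmSC libraries. Among the pan-leukocyte markers the highest level in any of the 21 libraries was 11.5 CPM for Cd68, 4.06 CPM for Csf1r and under 2 CPM for the other 9, while CD45+ cells had at least 295 CPM of each. Ctss, Lyz2, Adgre1, Mrc1, Trem2 and Chil3, 6 of the 10 macrophage genes, did not pass the filter. The neutrophil list summed to 111 to 141 CPM at 2 h of the mix against 4.00 to 10.3 CPM with PBS. Most of that difference was Lcn2, with 123 CPM in the mix against 2.10 CPM with PBS, while the granulocyte genes S100a8 and S100a9 had at most 0.48 CPM in any library. Of the 12 genes of the blood monocyte list 8 were tested and 5 were called, all higher, where 20.5% of all genes tested were. Among them were Thbs1 (5572 CPM in the mix, 374.7 CPM with PBS) and Vcan (927 against 606 CPM), while Ccr2 and Ly6c2 had at most 2.15 CPM in any library.

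**Figure D5:**
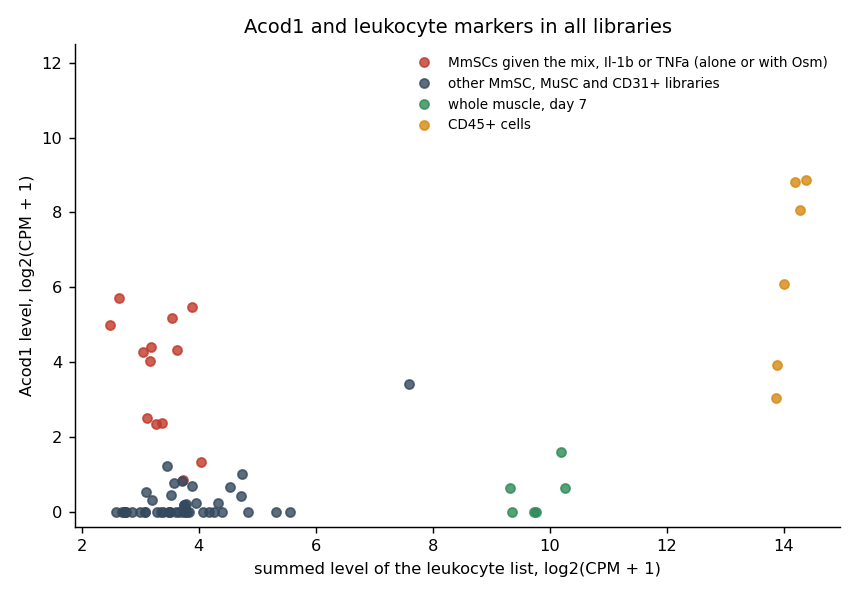
Level of Acod1 against the summed level of 11 pan-leukocyte markers in all 70 libraries, both as log2(CPM + 1), with colours for MmSCs given the mix, Il-1b or TNFa with or without Osm, for the remaining sorted non-leukocyte libraries, for whole muscle and for CD45+ cells. The cytokine libraries with Acod1 lie at the low end of the leukocyte axis, and the sorted non-leukocyte library at about 7.6 is CD31+ day 1 replicate 1.

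Genes of the same pathways moved in these MmSCs at 2 h of the mix. Of 18 genes of arginine and itaconate metabolism 7 rose and 1 fell, with a median log2 change of 0.39. The arginine transporter genes Slc7a1 (242 CPM in the mix, 34.5 CPM with PBS, 3.32 ± 0.17, adjusted p = 3.73e-12) and Slc7a2 (2.99 ± 0.35, adjusted p = 7.73e-07) rose, as did Odc1 (2.86 ± 0.23, adjusted p = 2.18e-09). Of 18 genes of inflammatory activation 9 passed the filter, and all 9 rose (median 5.13). Among them were Il6 and the interferon-inducible chemokine gene Cxcl9 (270.5 CPM against 2.65 CPM). A gene near 0 with PBS passes the filter only through cytokine groups where it is high, so that count is partly set by the filter. Of all genes tested 20.5% were called higher and 18% lower, and the median of all was -0.06. Over the 11 group means of this experiment the genes most like Acod1 by Pearson's r, among 9486, were Stx11 (0.974), Fam83c (0.972), Slc15a3 (0.969), Apaf1 (0.968) and Dennd4a (0.967), a description over groups that share cells and depth.

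Acod1 was also counted in MmSCs after injury. All 6 MmSC libraries of the compartment experiment had 0 counts, both at day 1 and at day 0. In the Il1b experiment the targeted gene had 0, 0 and 1 counts in Il1b-KO MmSCs and 2 and 5 counts in Il1b-WT MmSCs, so it is close to the floor in both and checks the labels weakly. Acod1 had 2, 0 and 0 counts in Il1b-KO MmSCs and 7 and 1 counts in Il1b-WT MmSCs. It had 5, 1 and 0 counts in Thy1.1+ MmSCs and 0, 0 and 1 counts in Thy1.1- MmSCs at 12 h. Both were under the filter, and the fits without a filter did not call them (edgeR adjusted p = 0.795 and 0.703). Of the genes that passed the filter 1.21% were called in the Il1b comparison and 0% in the Thy1.1 comparison. The Thy1.1 fit did not pair same-numbered libraries, although these deviated together (correlations of 0.36 to 0.62). At counts this low no conclusion is drawn on a difference in either comparison.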

How the data were processed

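RNA from sorted cells and whole muscle was sequenced by the study. The values used are raw counts for each gene in 70 libraries, which the authors deposited as 1 table. Reads were processed with STAR 2.7.3a and featureCounts on GRCm38 (mm10), per the submitters' processing notes, and no source used here gives the settings for strand and for reads that map to several places, which could change the counts of paralogs and overlapping genes. Library totals were 2252373 to 8408842 counts. Groups were taken from the submitters' labels, and no column of the table was left unassigned.

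Each experiment (compartments, whole muscle, cytokines, Il1b, Il6RD) was fitted separately over all its groups with edgeR 4.0.16 in R 4.3.3, using filterByExpr with a minimum count of 10, TMM factors and the quasi-likelihood test. The filter kept 16374, 13346, 15965, 12102 and 11975 genes, and p-values were adjusted over them by Benjamini and Hochberg's method, with calls at 0.05. A fold against a group at 0 was bounded with a floor of 3 counts per library, and ratios on few counts have exact 95% counting intervals. These cover counting error only, since the reads carry no molecular identifiers. With 1 library (4 h), the spread is assumed to be that of the other groups.

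The 10 genes, the 18 lists (160 genes, none of them among the 10) and the tests were chosen with earlier results of these data known. Named list genes were those with the smallest p-values in each list, or were chosen after their values were seen. Scripts were tested on simulated data. Same-numbered libraries did not deviate together in CD45+ cells (correlations of -0.02 to 0.00), MmSCs (-0.06 to 0.07), whole muscle (-0.03 to 0.03), the cytokine groups (-0.04 to 0.09) or the Il1b groups (-0.10 to 0.02). In the Thy1.1 groups they did (0.36 to 0.62), where Acod1 was under the filter. Alternatives were RLE factors, DESeq2 1.42.0, no filter, the replicate number as a block, only the groups compared and leaving out each library. Promoter windows are from the RefSeq table of GRCm38.p6, searched with Python 3.11.15 and Biopython 1.88, and figures were drawn with matplotlib 3.10.9.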

Additional observations from a re-analysis of the deposited data

Results flagged for a closer look

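For 2 of the 10 genes the response to injury differed between populations by a test of the difference itself. Acod1, Chil3 and Trem2 could not be called by this test, because they had 0 counts in all 6 MmSC libraries of the experiment. The response of Arg1 in CD45+ cells minus that in MmSCs was 8.22 ± 0.70 on the log2 scale (edgeR interaction, adjusted p = 2.98e-08), and 7.72 to 8.42 with any 1 library left out. That of Gpnmb was 5.55 ± 0.83 (adjusted p = 2.96e-05), with a rise in CD45+ cells and a fall in MmSCs, and 4.70 to 6.84 with any 1 library left out.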

How the results depend on the processing

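No called result changed direction under edgeR with RLE factors, DESeq2, no count filter, the replicate number as a block, a fit of the CD45+ groups alone or the omission of a library. In CD45+ cells the 5665 genes called became 5484 with the replicate block and 4749 to 5112 with 1 library left out, and 4 to 5 of the 10 genes were called. The change of Arg1 was 7.80 with the replicate block. Whole muscle was the most dependent on the filter: without it 159 genes and 4 of the 10 were called (Trem2, Gpnmb, Ctss and Lyz2), with the replicate block 0 genes were called and with 1 library left out 0 to 4, the value being 0 without aCxcl5 replicate 3 or any IgG library. The cause was not tested. The share of all genes called without the filter was not computed, so the calls among the 10 are not read as a result. The Acod1 difference between Il-1b and TNFa passed without the filter (1.32, adjusted p = 0.00745) and with DESeq2 (1.34, adjusted p = 0.0382), and lay between 0.0265 and 2.03 with 1 library left out. The difference between Osm with Il-1b and Il-1b alone lay between 1.16 and 3.17, and the fitted change of the mix at 8 h over PBS, which depends on the prior count, between 5.30 and 6.13. Without the filter Lyz2 was also called for the difference between CD45+ and MmSC responses (2.44, adjusted p = 0.00101). For Acod1 in Il1b-KO and Thy1.1+ MmSCs no alternative besides no filter could be fitted. Depth limits Arg1, Acod1 and Chil3 in whole muscle and Nos2 in CD45+ cells, which had at most 14 counts in any library. Differences that were not called changed sign with 1 library left out. The fitted change lay between -0.52 and 0.0743 for Mrc1 in CD45+ cells, and for CD45+ minus MmSC responses between -1.71 and 4.65 for Nos2 and between -1.33 and 2.94 for Ctss. For Osm with Il-17A against Osm it lay between -2.24 and 4.26 for Acod1 and between -3.08 and 2.21 for Nos2. For Nos2 it lay between -2.99 and 3.02 (mix at 8 h against PBS), -3.00 and 1.00 (Osm against PBS), -3.00 and 0.0824 (Osm with Il-17A against PBS), -0.72 and 1.00 (Osm with Il-1b against Il-1b), -1.23 and 0.29 (Osm with TNFa against TNFa), -0.98 and 0.35 (mix at 2 h against Il-1b) and -1.19 and 0.26 (mix at 2 h against Osm with Il-1b). The fits for Arg2 and Lyz1 and the levels per kilobase without a library were added after the data were seen, and both paralogs stayed called in every fit.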
